A study of Mus musculus with 12 samples.

Results

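The angiotensin system was examined in cultured mouse embryonic fibroblasts through 7 genes: Agtr2, Agtr1a and Agtr1b, which encode the angiotensin II receptors, Mas1, the receptor of angiotensin-(1-7), Agt, the precursor angiotensinogen, Ren1, the protease renin, and Ace, the angiotensin-converting enzyme. The genes were chosen because Agtr2 was among the most variable genes between cultures. Each gene was represented by a probe set annotated with that symbol alone, and 5 of the 7 had one, among 28853 probe sets in all. Agtr1b and Ren1 are not analysed here. The 12 cultures came from male C57BL/6J embryos of stage E12.5-14.5 and were harvested untreated at passage 5. They formed 4 groups of 3: mTERT KO, which lacked telomerase reverse transcriptase, mTR KO, which lacked the telomerase RNA, and the wild types of each line, mTERT WT and mTR WT. Both knockouts were first-generation (G1) animals, and the design text describes 3 independent sets in which knockout and wild type were littermates. No angiotensin peptide or receptor blocker was among the labelled treatments.

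In the classical pathway renin cuts angiotensinogen, the converting enzyme turns the product into angiotensin II, and angiotensin II acts on AT1 receptors (Agtr1a, Agtr1b) and the AT2 receptor (Agtr2). AT1 couples mainly to Gq and drives contraction, matrix production and growth, whereas AT2 is known for opposing several of these responses. Agtr2 is widely expressed in fetal mesenchyme and is lost from most tissues after birth.

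Values are log2 signals of 1 array per culture, and a signal is called above background where it exceeds the background level of its own array. The background level was the 95th percentile of 1035 odorant receptor probe sets, which lay between 4.93 and 5.09 in the 12 arrays. As a check of the labels, Tert read 4.75 to 4.99 in mTERT KO cultures and 5.51 to 5.80 in the other 9. Terc read 4.50 to 4.73 in mTR KO and 4.64 to 4.94 in the other cultures, so its probe set gave no check of the mTR KO label. The listed fibroblast markers (Col1a1, Pdgfra, Dcn and 8 others) were all above background in every culture, whereas 6 of 8 endothelial markers (Pecam1, Cdh5, Kdr, Tek, Tie1 and Vwf) were above it in none, Emcn in 3 and Erg in 9 of 12 cultures. All 12 macrophage markers were above background in every culture.

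Upstream sequences of 3 genes are shown because they belong to Agtr2, to the gene whose signal followed it most closely (Pdgfra), and to a contractile gene whose signal ran opposite (Cnn1). Each is the 150 bases before the transcript start in RefSeq (GRCm38.p6, plus strand), at chrX:21484474-21484623 for Agtr2, chr5:75152101-75152250 for Pdgfra and chr9:22099103-22099252 for Cnn1. Capitals mark matches to the motifs searched on both strands. These were the TATA element in its forms TATAAA and, as in the gene shown first, TATATA. The others were the CCAAT element, spelled as its name, the GC box with letters GGGCGG, the AP-1 site with letters TGANTCA, and the CArG box.
Agtr2: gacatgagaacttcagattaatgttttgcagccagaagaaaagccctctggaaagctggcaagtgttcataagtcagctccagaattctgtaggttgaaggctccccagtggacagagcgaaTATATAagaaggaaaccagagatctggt
Pdgfra: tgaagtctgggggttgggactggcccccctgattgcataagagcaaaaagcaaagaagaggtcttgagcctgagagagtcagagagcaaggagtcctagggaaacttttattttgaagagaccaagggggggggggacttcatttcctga
Cnn1: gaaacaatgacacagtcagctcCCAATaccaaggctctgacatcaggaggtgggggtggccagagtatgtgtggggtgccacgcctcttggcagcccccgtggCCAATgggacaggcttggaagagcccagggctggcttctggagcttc

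The Agtr2 window held TATATA at 28 to 23 bases before the start, a motif found in 2.97% of the 32851 RefSeq windows of this length. The Cnn1 window held CCAAT at 128 to 124 and at 47 to 43 bases before the start, a motif found in 24.5% of windows. None of the motifs searched was found in the Pdgfra window. The others occurred in 7.57% (TATAAA), 28.6% (GGGCGG), 4.24% (TGANTCA) and 0.916% (CArG box) of windows. No motif was found in more than 1 of the 3 windows.

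Agtr2 ranged from background to a strong signal among the 12 cultures, which were grown in the same medium. The wild types of the mTERT line, in the order of their numbers 1 to 3, gave signals of 7.45, 7.45 and 4.67, and the knockouts gave 8.14, 7.86 and 4.88. The mTR wild types gave 6.48, 5.55 and 5.40 and the mTR knockouts 8.95, 6.10 and 5.46, in the same order. The highest culture was mTR KO 1 and the lowest were mTERT cultures 3 of both genotypes, the only 2 of 12 in which Agtr2 was not above background. The range of 4.28 is therefore a range of signals, and the lower end is a bound on the transcript. Because RNA came from whole cultures, fewer cells with the transcript and less transcript per cell cannot be told apart.

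The standard deviation (SD) of Agtr2 over the 12 cultures was 1.40, against a median of 0.12 over all probe sets. This spread chose the gene and is given as a description. It ranked 7 among 28853, just behind Ifit1 (SD 1.45) and Sftpc (SD 1.42) and just ahead of Saa3 (SD 1.39) and Lcn2 (SD 1.38). The first 4 were Cxcl5 (SD 1.71), Col10a1 (SD 1.68), Mmp3 (SD 1.52) and Egfl6 (SD 1.47). Without mTR KO 1 the SD of Agtr2 was 1.24, and without mTR WT 1 it was 1.47.

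**Figure D1:**
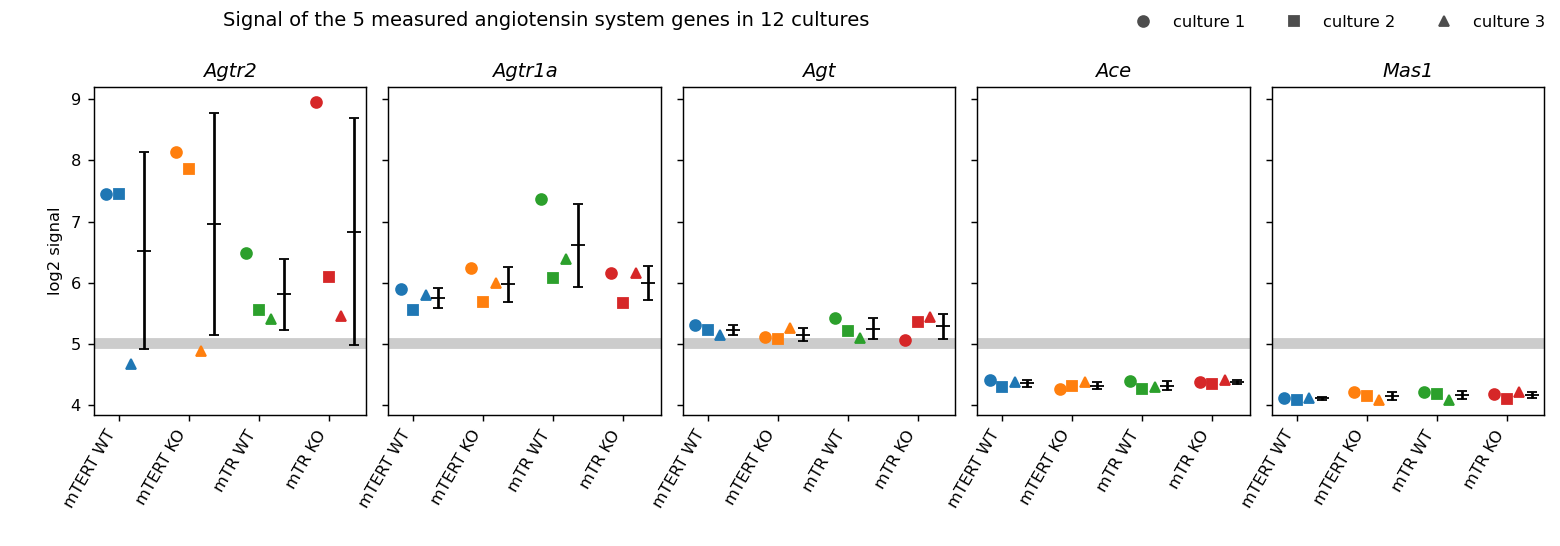
Log2 signal of each measured gene (vertical axis) in the 4 groups (horizontal axis). Each point is 1 culture, bars give the mean ± SD of 3 cultures, and the grey band spans the background level of the 12 arrays. Agtr2 spans 4.67 to 8.95 with overlapping groups, Agtr1a stands highest in mTR WT 1, Agt lies just above the band, and Ace and Mas1 lie below it.

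Group means of Agtr2 were ordered mTERT KO at 6.96 ± 1.80 (SD, n = 3), mTR KO at 6.83 ± 1.86, mTERT WT at 6.52 ± 1.60 and mTR WT at 5.81 ± 0.58. No step in this order exceeded the larger SD of its 2 groups, and the groups overlapped in each comparison. The difference was 0.43 (6.96 against 6.52) between mTERT KO and mTERT WT, and 1.02 (6.83 against 5.81) between mTR KO and mTR WT. The wild types of both lines differed by 0.71 (6.52 in mTERT WT against 5.81 in mTR WT), or 0.25 without mTERT WT 1 and 1.64 without mTERT WT 3. No test of these differences is given, since Agtr2 was picked for its spread over the same cultures. The mTR difference was −0.03 without mTR KO 1 and 1.71 without mTR KO 3. The mTERT difference was −0.49 without mTERT WT 3 and 1.47 without mTERT KO 3, omissions that leave the other culture of that number unmatched.

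In the mTERT line most of this spread followed the number of the culture. Cultures of the same number also deviated together over the brighter probe sets in that line, so the numbers were taken as pairs there. Agtr2 was higher in the knockout by 0.68, 0.41 and 0.21 in pairs 1 to 3. In pair 3 neither signal was above background, so its 0.21 says nothing about the transcript. The mean difference lay between 0.31 and 0.55 when 1 whole pair was left out, and was 0.55 without pair 3. The number accounted for 97.2% of the variance of Agtr2 within the mTERT line and the genotype for 2.38%, against medians of 55.6% and 7.53% over all probe sets. For the mTR line, where the numbers did not pair the cultures, the shares were 65.1% and 17.2%, against medians of 36.2% and 14.7%. Agtr2 was picked for its spread over these same cultures, so its shares are a description, and the medians are no test of them. The mTERT share of the number mostly sets cultures 3, where Agtr2 was not above background, against the others.

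Agtr1a, the main AT1 receptor of the mouse, was above background in all 12 cultures and had a narrower range. The mTERT wild types 1 to 3 gave 5.89, 5.56 and 5.80, and the mTERT knockouts 6.25, 5.68 and 6.00. The mTR wild types gave 7.36, 6.07 and 6.39, and the mTR knockouts 6.16, 5.67 and 6.16. One culture, mTR WT 1, stood above all others, and the 12-culture SD of 0.48 was 0.27 without it. All 3 mTERT WT cultures lay below all 3 mTR WT cultures, which made Agtr1a the only 1 of the 4 tested members with groups that did not overlap. Between these wild types 7.14% of all probe sets were lower without overlap, 5.91% higher and 13.1% either.

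Agtr1a differed by −0.86 ± 0.28 (SE) between mTERT WT and mTR WT, a comparison of 2 lines with the same genotype at Tert and Terc, and did not pass (limma, adjusted p = 0.556). The difference was −0.48 without mTR WT 1. In the same comparison 12 of 12 macrophage markers were higher in mTERT WT (median difference 0.80), with overlapping groups for each. Their mean signal was 6.83 in mTR WT 1 against 8.47 and 8.90 in mTR WT 2 and 3. The pericyte genes Rgs5 (−1.34 ± 0.51, adjusted p = 0.659) and Cspg4 (−0.78 ± 0.27, adjusted p = 0.584), named after their values were seen, were lower without overlap. So were 7.14% of all probe sets, and Notch3 of the same list overlapped (−0.01). In mTR KO against mTR WT Agtr1a differed by −0.61 ± 0.28 (adjusted p = 0.839), and by −0.24 without mTR WT 1. There too 12 of 12 macrophage markers differed upward with overlapping groups. Rgs5 (−1.37 ± 0.51) and Cspg4 (−0.74 ± 0.27) were lower without overlap (adjusted p = 0.839 for both), as were 6.07% of all probe sets, and Notch3 overlapped (−0.16). In mTERT KO against mTERT WT Agtr1a differed by 0.23 ± 0.28 (adjusted p = 1), with the knockout higher by 0.36, 0.12 and 0.20 in pairs 1 to 3. The difference between both knockout effects was 0.84 ± 0.40 (adjusted p = 1.00). Signal from the closely related Agtr1b, which could share probes with Agtr1a, was not tested.

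Agtr1a and Agtr2 did not vary together. Over the 12 cultures Pearson's r between them was −0.05 and Spearman's rank correlation 0.04, and r was −0.08 without mTR WT 1. Culture mTR KO 1 had the highest Agtr2 and an Agtr1a of 6.16, and the mTERT cultures 3 had the lowest Agtr2 and an Agtr1a of 5.80 and 6.00.

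Agt, the only substrate of the pathway, was above background in 12 of 12 cultures by a small margin. Signals were 5.32, 5.23 and 5.15 among mTERT wild types 1 to 3, and 5.12, 5.08 and 5.27 among mTERT knockouts. The mTR wild types read 5.43, 5.22 and 5.10 and the mTR knockouts 5.06, 5.36 and 5.45. All groups overlapped, with differences of −0.08 ± 0.11 for mTERT KO (adjusted p = 1) and 0.04 ± 0.11 for mTR KO (adjusted p = 0.962, limma). Its range was 0.39, as was the median range of all probe sets.

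Ace and Mas1 were below background in every culture. Ace read 4.26 to 4.42, with group means of 4.36 in mTERT WT, 4.32 in mTERT KO, 4.32 in mTR WT and 4.38 in mTR KO. Mas1 read 4.09 to 4.22, with group means of 4.11, 4.15, 4.16 and 4.17 in the same order. Differences between groups of such signals say nothing about the transcripts. For Ace they were −0.04 ± 0.06 for mTERT KO and 0.06 ± 0.06 for mTR KO (limma, adjusted p = 1 and 0.873), and for Mas1 0.04 ± 0.06 and 0.004 ± 0.06 (adjusted p = 1 and 0.996). Thus 0 of the 4 members tested passed a 5% false discovery rate in either knockout comparison, where 0.00347% of all probe sets passed for mTERT KO and 0.0% for mTR KO. In the comparison of wild types 0 of 4 passed, and 0.0173% of all probe sets did. At an unadjusted p under 0.05, Agtr1a between the wild types was the only member.

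The other genes of the pathway, taken from 5 lists, showed the same absence of calls. None of 17 measured angiotensin peptidases, 6 receptor partners, 19 signalling genes, 8 genes of the kinin and mineralocorticoid arms and 14 angiotensin II response genes passed in any comparison (limma, lowest adjusted p of 1 for mTERT KO, 0.839 for mTR KO and 0.538 between the wild types). At an unadjusted p under 0.05 there were 1 of 64 for mTERT KO (1.92% of all probe sets), 6 for mTR KO (5.82%) and 13 between the wild types (6.78%). Median differences of the 5 lists lay between −0.09 and 0.07 for mTERT KO and between −0.07 and 0.0005 for mTR KO, against medians of 0.001 and 0.0009 over all probe sets. Among the 17 peptidases 1 was higher and 1 lower without overlap in mTERT KO, where 2.88% and 3.09% of all probe sets were, but both, Cpa3 and Ctsg, were below background in every culture. In mTR KO, 3 peptidases were lower without overlap (6.07% of all probe sets), named after their values were seen. They were Thop1 at −0.22 ± 0.07, Dpp3 at −0.15 ± 0.09 and Prcp at −0.07 ± 0.08 (limma, adjusted p = 0.839, 0.84 and 0.897). All encode enzymes able to cut angiotensin peptides. In mTERT WT against mTR WT, Thop1 was also lower without overlap (−0.235), as were 7.14% of all probe sets, while Dpp3 and Prcp overlapped.

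Within the peptidases the widest ranges belonged to 2 cell-surface enzymes. Mme (neprilysin), which converts angiotensin I to angiotensin-(1-7), ranged from 4.80 in mTERT WT 3 and 4.94 in mTERT KO 3 to 7.25 in mTR KO 1. As for Agtr2, mTERT cultures 3 were lowest and not above background, and mTR KO 1 was highest, with r = 0.75 between both genes. Anpep (aminopeptidase N), which trims angiotensin III, ranged from 5.81 in mTR WT 1 to 7.89 in mTR KO 1 (r = 0.56). Ctsd (cathepsin D), a lysosomal protease, ranged from 12.02 to 12.76 (r = −0.53). The mast cell enzymes Cma1, Mcpt4, Cpa3 and the neutrophil protease Ctsg were above background in none of the cultures, as was Mmel1.

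Among the receptor partners Mtus1 had the widest range. Mtus1, whose product binds the tail of AT2, gave 8.06, 7.38 and 7.99 among mTERT wild types, 7.95, 7.61 and 8.17 among mTERT knockouts, 7.91, 8.05 and 7.96 among mTR wild types and 7.06, 7.68 and 8.24 among mTR knockouts. It was lowest in mTR KO 1, the culture highest for Agtr2 (r = −0.71). Arap1, a GTPase-activating protein linked to AT1 trafficking, ranged from 7.07 to 7.71 and was higher in all 3 mTR KO than in all 3 mTR WT cultures (0.32 ± 0.14, adjusted p = 0.839), as were 5.33% of all probe sets. In mTERT WT against mTR WT, Arap1 was also higher without overlap (0.35 ± 0.14), as were 5.91% of all probe sets. Its r with Agtr2 was 0.85. Agtrap, whose product binds AT1 and lowers its surface level, was named after its values were seen. It was higher without overlap in mTERT KO (0.18 ± 0.07, adjusted p = 1), as were 2.88% of all probe sets. Against mTR WT, mTERT WT was also lower for Agtrap without overlap (−0.09), as were 7.14% of all probe sets. The (pro)renin receptor gene Atp6ap2 ranged from 9.07 to 9.64 (r = −0.34).

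Over the 19 signalling genes r with Agtr2 ran from −0.80 (Itpr3) to 0.83 (Jak2), with a median of −0.05. The median over all probe sets of 1 gene was −0.09. The 3 signalling genes with the widest ranges did not follow Agtr2. Arrb2, encoding a beta-arrestin that desensitises AT1, ranged from 6.00 in mTR WT 1 to 8.12 in mTR KO 1 (r = 0.15), Ptpn6, a phosphatase of blood cells linked to AT2 signalling, from 5.97 to 7.97 (r = −0.02), and Arrb1 from 6.11 to 7.35 (r = 0.11). Arrb2 and Ptpn6 were both lowest in mTR WT 1 and highest in mTR KO 1, while Arrb1 was lowest in mTERT KO 1. The mean signal of the 12 macrophage markers was also extreme in mTR WT 1 (6.83) and mTR KO 1 (9.76). The part of macrophages in these values was not tested. Between mTR KO and mTR WT, 3 of the 19 signalling genes were lower and 1 higher without overlap, against 6.07% and 5.33% of all probe sets, and none passed (limma, adjusted p = 0.839 for each). The lower ones, named after their values were seen, were Gnaq (−0.14 ± 0.07) and Gna11 (−0.23 ± 0.09), the Gq family subunits through which AT1 signals, and Itpr3 (−0.37 ± 0.14), a calcium channel of the endoplasmic reticulum. The higher one was the protein kinase gene Rock1 (0.18 ± 0.07). In mTERT WT against mTR WT, Gnaq (−0.21), Gna11 (−0.23) and Itpr3 (−0.465) were also lower without overlap, and Rock1 (0.13) was higher. There 7.14% of all probe sets were lower and 5.91% higher without overlap. Both comparisons share the mTR WT cultures.

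In the kinin and mineralocorticoid arms, Hsd11b2, which inactivates corticosterone, ranged from 4.71 in mTR KO 1 to 6.16 in mTERT KO 3, opposite in order to Agtr2 (r = −0.79). It was above background in 9 of 12 cultures. Sgk1, a kinase induced by aldosterone, ranged from 7.91 to 8.87 (r = 0.39), and the bradykinin receptor gene Bdkrb2 from 4.34 to 5.19, above background in 2 of 12 cultures. The mineralocorticoid receptor gene Nr3c2 was above background in none.

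Genes known to respond to angiotensin II in fibroblasts differed upward in 5 and downward in 9 of 14 cases for mTERT KO, and upward in 6 and downward in 8 for mTR KO, with none passing. The widest ranges were those of Ccl2, a monocyte chemokine (6.39 to 10.05, r = 0.65 with Agtr2), Il6, a cytokine (4.56 to 7.35, r = 0.44), and Nr4a1, an immediate early nuclear receptor (7.65 to 9.41, r = 0.28). Il6 was above background in 4 of 12 cultures. Ccn2, a matricellular protein induced by AT1 and TGF-beta, and Fn1 (fibronectin), both named after their values were seen, ran opposite to Agtr2 with r = −0.85 and −0.86. Ccn2 was lowest in mTR KO 1 (11.43) and highest in mTR WT 3 (12.44), and Fn1 was lowest in mTR KO 1 (13.05). These genes had the lowest r of the list, whose median over the 14 was −0.49. Without mTERT KO 1 and mTR KO 1, the cultures farthest from the Agtr2 median, the list median was −0.09, with 6 positive and 8 negative.

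The genes whose pattern was most like that of Agtr2 were sought among 1684 probe sets of 1 gene with a mean above background and an SD of at least 0.3. The measure was Pearson's r over 12 cultures, some of which share a litter, and the genes were picked by it, so r is a description without a p. An r of 0.8 or more was reached by 8.97% of these probe sets and one of −0.8 or less by 6.53%. Agtr2 was thus 1 of many genes with this pattern.

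Pdgfra, the receptor for PDGF-A that marks embryonic mesenchyme, came first. Its signals were 9.01, 8.83 and 6.30 among mTERT wild types 1 to 3, 9.44, 9.43 and 6.21 among mTERT knockouts, 8.05, 7.75 and 7.44 among mTR wild types and 9.98, 7.70 and 7.16 among mTR knockouts. As with Agtr2, mTR KO 1 was highest and mTERT cultures 3 were lowest, with r = 0.98 over all cultures, 0.996 within the mTERT line and 0.98 within the mTR line (n = 6 each). The 6 mTERT cultures form 3 pairs, and that r mostly sets cultures 3 against the others. Without mTERT KO 1 and mTR KO 1, the cultures farthest from the Agtr2 median, r was 0.97.

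Next came Il1rl2, the interleukin-36 receptor (r = 0.97), Olfml3, a secreted olfactomedin-domain protein (r = 0.97), Arhgap20, a GTPase-activating protein (r = 0.97), and Fbln1, the matrix protein fibulin-1 (r = 0.96). Clmp, an adhesion molecule (r = 0.96), Zfhx4, a homeodomain zinc-finger factor (r = 0.95), and Nsg1, an endosomal protein (r = 0.95), completed the 8. The next in order was Igdcc4 (r = 0.94). Arhgap20 had the widest range of the group after Pdgfra, from 4.62 in mTERT WT 3 to 7.21 in mTR KO 1, and Fbln1 ranged from 7.24 to 8.73. Arhgap20 was not above background in mTERT cultures 3, mTR WT 2, mTR WT 3 and mTR KO 3, so its lower end is a bound. Among the 8, r was between 0.93 and 0.97 without the 2 farthest cultures and between 0.92 and 0.996 within either line. These subsets are part of the cultures by which the genes were picked, so the values are no separate check of the likeness.

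**Figure D2:**
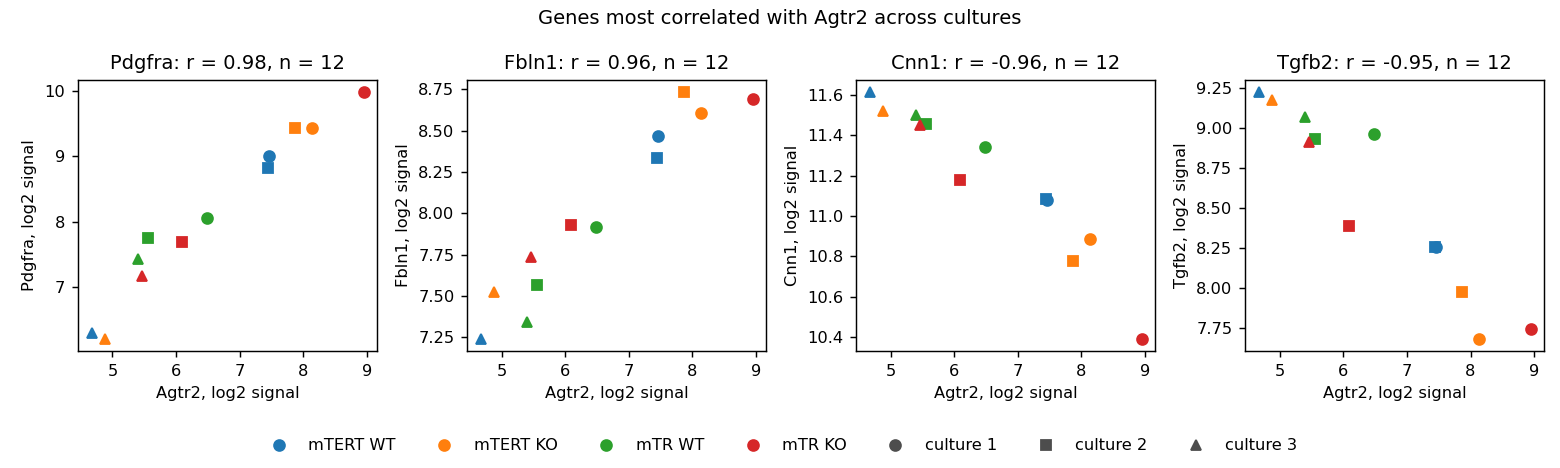
Log2 signal of Pdgfra, Fbln1, Cnn1 and Tgfb2 (vertical axes) against that of Agtr2 (horizontal axes), 1 point per culture, coloured by group and shaped by culture number. Pdgfra and Fbln1 lie on upward slopes (r = 0.98 and 0.96) and Cnn1 and Tgfb2 on downward ones (r = −0.96 and −0.95), and cultures of all 4 groups lie along the same slopes.

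The genes with the lowest r included a contractile protein and a growth factor of the myofibroblast programme. Kif1a, a kinesin, had r = −0.97, Cnn1, the actin-binding calponin of smooth muscle, −0.96, Rbpms2, an RNA-binding regulator of smooth muscle, −0.95, and Tgfb2, a TGF-beta ligand, −0.95. Olfm2 was next in order (r = −0.95). Cnn1 gave 11.08, 11.09 and 11.62 among mTERT wild types, 10.89, 10.78 and 11.52 among mTERT knockouts, 11.34, 11.46 and 11.50 among mTR wild types and 10.39, 11.18 and 11.45 among mTR knockouts. Tgfb2 read 8.26, 8.26 and 9.23, then 7.69, 7.98 and 9.18, then 8.97, 8.93 and 9.07, then 7.74, 8.39 and 8.92 in the same order of groups. Both were highest in mTERT WT 3, where Agtr2 was lowest.

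**Figure D3:**
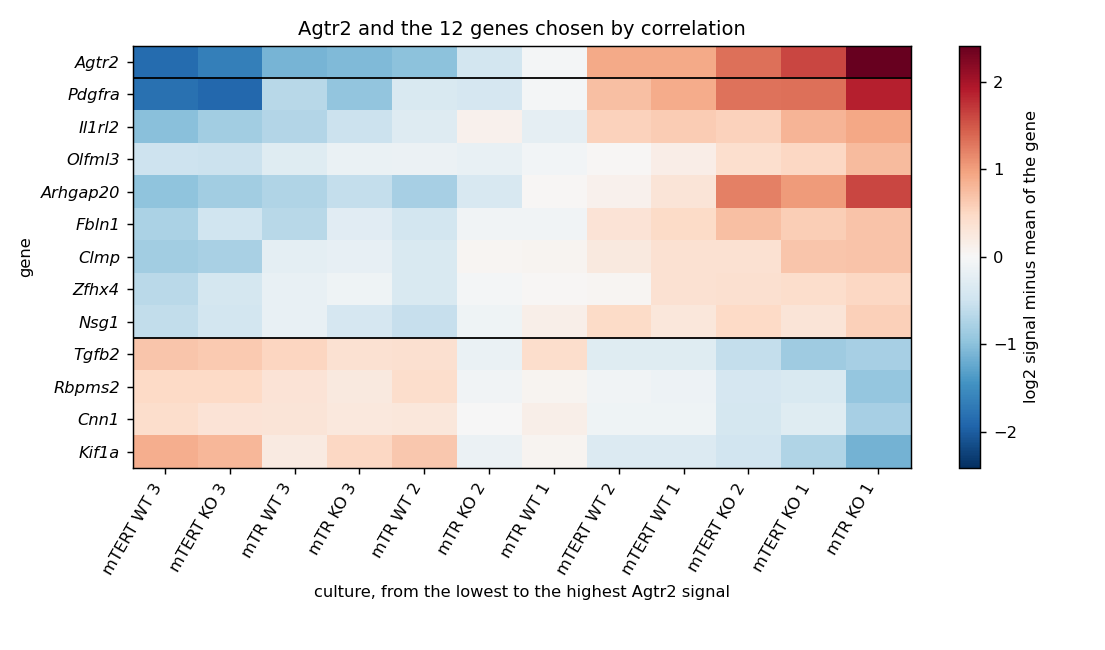
Log2 signal minus the gene's mean (colour) for Agtr2 and the 12 genes chosen by correlation (rows), with the 12 cultures ordered from the lowest to the highest Agtr2 signal (columns). The 8 genes with high r change colour in the same order as Agtr2 and the 4 with low r in the opposite order. Wild-type and knockout cultures are mixed along the order, but its upper end holds knockouts alone (mTERT KO 2, mTERT KO 1 and mTR KO 1).

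Marker lists showed which cell-type genes varied with Agtr2. For smooth muscle 9 of 9 markers had a negative r, with a median of −0.85, against a median of −0.09 over all 21788 other probe sets of 1 gene. The median was −0.74 without the 2 farthest cultures, −0.88 within the mTERT line and −0.88 within the mTR line. Tagln (−0.90), Myl9 (−0.91) and Acta2 (−0.85), all genes of the contractile apparatus, were among the 7 at −0.8 or below, as was Cnn1, already named for its low r. The mean signal of the list spanned 10.00 to 10.42 for mTERT WT, 9.69 to 10.28 for mTERT KO, 10.28 to 10.37 for mTR WT and 9.44 to 10.41 for mTR KO. Its median difference was −0.15 for mTERT KO and −0.39 for mTR KO. Differences were below 0 for 9 of 9 markers in both, with overlapping groups for every marker. In mTERT WT against mTR WT the median was −0.17, also below 0 for 9 of 9. Smtn alone was lower without overlap there, as were 7.14% of all probe sets. The markers all ran opposite to Agtr2 over the same cultures, so they are not separate observations. The part of contractile cells in the level of Agtr2 was not tested.

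Fibroblast markers had a positive r in 10 of 11 cases, with a median of 0.54, or 0.41 without the 2 farthest cultures, when 8 were positive. Pdgfra was a member of this list as well, and Lum (lumican, 0.90), Dcn (decorin, 0.88) and Col3a1 (type III collagen, 0.87) followed it. Lum ranged from 5.62 in mTERT WT 3 to 10.09 in mTERT KO 2. Col1a1 (0.15), Thy1 (0.18) and S100a4 (0.06) varied little with Agtr2, and Vim had r = −0.71. The list thus held markers with high, low and negative r.

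Macrophage markers did not follow Agtr2 over the 12 cultures, with r between −0.15 and 0.30 and a median of −0.01. The median was −0.57 within the mTERT line and 0.45 within the mTR line. Their mean signal spanned 7.90 to 9.54 in mTERT WT, 7.65 to 9.44 in mTERT KO, 6.83 to 8.90 in mTR WT and 7.73 to 9.76 in mTR KO. For mTR KO 12 of 12 macrophage markers differed upward (median 0.78), and for mTERT KO 1 of 12 did (median −0.14), with overlapping groups for every marker. The cartilage, adipocyte, neural and endothelial lists had medians between −0.17 and −0.04, the epithelial list −0.39 and the skeletal muscle list −0.45. In the last, Acta1 (−0.89) and Des (−0.79), which smooth muscle and myofibroblasts also express, had the lowest r. Of the myogenic factors in that list, Myod1 and Myog were above background in 6 cultures each and Myf5 in none.

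**Figure D4:**
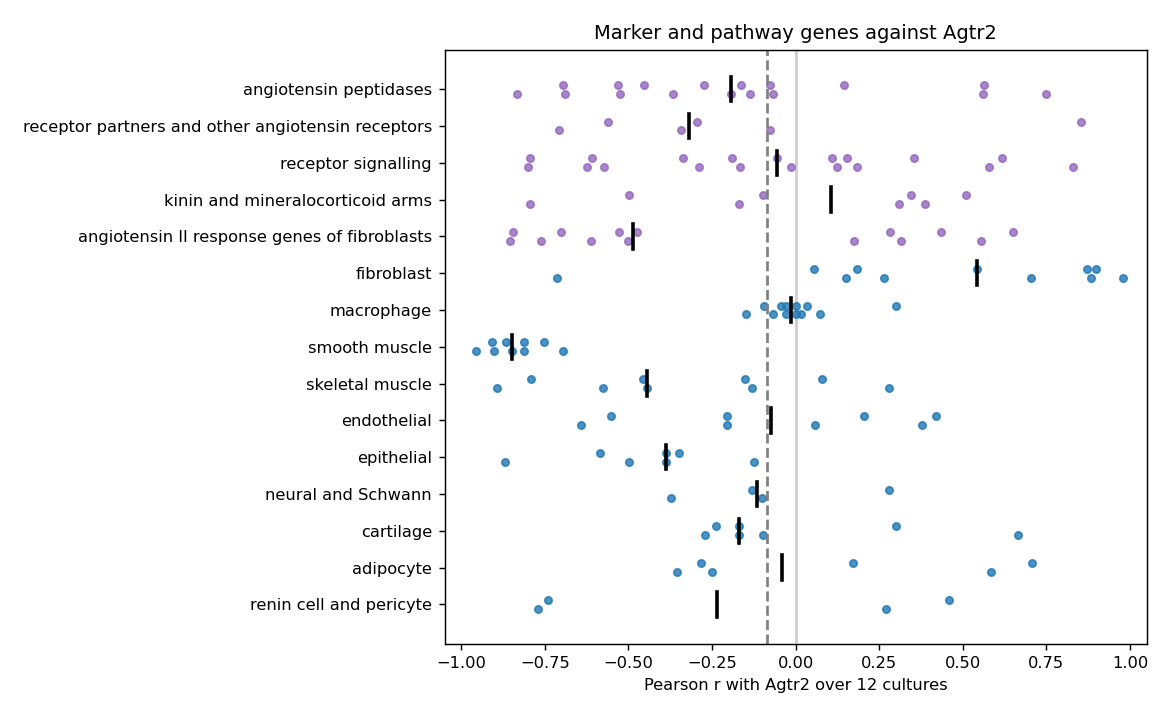
Pearson's r with Agtr2 over 12 cultures (horizontal axis) for each measured gene of the pathway lists (purple) and marker lists (blue), with the list median as a black bar and the median of all probe sets of 1 gene as a dashed line. Smooth muscle markers lie at −0.70 and below, fibroblast markers reach 0.98, and macrophage markers lie around 0.

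Agtr1a varied with other marker genes than Agtr2 did. Macrophage markers had a negative r with Agtr1a in 12 of 12 cases, with a median of −0.69, and −0.41 without mTR WT 1, the culture with the highest Agtr1a and the lowest macrophage signal (6.83). Of the 4 measured markers of renin cells and pericytes, Kcnj8 was above background in none of the cultures. The other 3 had a positive r with Agtr1a, against a median of 0.04 over all probe sets of 1 gene: 0.68 for Cspg4, 0.57 for Rgs5 and 0.34 for Notch3, or 0.44, 0.37 and 0.03 without mTR WT 1. Cspg4 and Rgs5 read 8.57 and 7.51 in mTR WT 1, their highest values. Such r was not particular to pericyte genes, since Rgs5 ranked 981 by r with Agtr1a among 21788 other probe sets of 1 gene. Cartilage markers had a positive r with Agtr1a in 6 of 7 cases, with a median of 0.43, or 0.09 without mTR WT 1. The cartilage gene Col2a1 (0.71) and the adipocyte gene Fabp4 (0.73) exceeded Cspg4. With Agtr2, r was −0.77 for Rgs5, −0.74 for Cspg4 and 0.27 for Notch3. The part of macrophages or pericytes in the level of Agtr1a was not tested.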

How the data were processed

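Expression was measured on Affymetrix arrays, 1 per culture, in 12 cultures. The table deposited by the authors holds log2 summary signals per probe set, and its column quantiles differed by at most 0.08. Per the submitters' processing notes GCOS 1.4, Affymetrix Expression Console and PLIER were used, without a stated role, and the method of normalization was not given in the sources used here. Precision is limited by 3 arrays per group.

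Probe sets were named from the platform annotation, in which 21789 carried 1 symbol. Of these 21698 matched the RefSeq table (GRCm38.p6) by gene ID, with no name changed. Of 162 list entries 146 had a probe set. A model of 4 group means was fitted to all 28853 probe sets with limma 3.58.1 (R 4.3.3), all 12 arrays together and Benjamini-Hochberg adjustment at 5% and no filter. The procedure was tested on simulated data. Figures used matplotlib 3.10.9.

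The members and lists were chosen with earlier results of these data known. Named genes were the members, the 3 widest-ranging genes of each pathway list, the 8 highest and 4 lowest r with Agtr2, the 3 measured genes on each side of Agtr2, and Tert and Terc; others were named after their values were seen.

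Deviations from group means over the brighter probe sets correlated at 0.674, 0.733 and 0.790 for mTERT cultures of the same number and at −0.156, 0.289 and −0.377 for mTR cultures, so the numbers pair the mTERT cultures alone. This pairing comes from the data and the littermate design.

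Alternatives were the replicate block, quantile normalization, median centring, a filter on dim probe sets, a fit of the 6 arrays compared, and omission of each array.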

Additional observations from a re-analysis of the deposited data

How the results depend on the processing

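No tested member passed the 5% threshold under any alternative, with limma adjusted p between 0.383 and 1. The members tested were 4, or Agtr1a and Agt alone where dim probe sets were left out. With the replicate block in both lines, the mTR difference of Agtr1a was −0.61 with an adjusted p of 0.481, and with the replicate block in the mTERT line alone it was 0.680. The block changed no call of a member, and over all probe sets it took the calls for mTERT KO from 1 to 0, or left 1 with the mTERT line alone. The comparison of wild types is not given under the block, which estimates it for cultures of number 1 alone. Directions of differences near 0 turned: Mas1 between mTR KO and mTR WT was −0.0087 after median centring and lay between −0.034 and 0.032 with single arrays left out. Agt lay between −0.041 and 0.15 for mTR KO, and between −0.091 and 0.074 between the wild types, on the same omissions. The 12 genes named for their r with Agtr2 were all at 0.8 or beyond by Spearman's rank correlation and without the 2 farthest cultures. As the same cultures picked these genes, this is no separate check of the likeness. Each member had 1 probe set, so no other probe set could be tried. The marker and pathway list correlations with cultures left out and the omission of whole mTERT pairs were chosen after seeing the data. Array signals near background limit Agt, Ace and Mas1, and the low end of Agtr2.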

Other observations

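The genes next to Agtr2 on the X chromosome did not share its range. In the gene order of the RefSeq table (GRCm38.p6), the 3 measured genes before it were Zfp300, Ssxa1 and Gm5124, and the 3 after it Slc6a14, Ppp1r2-ps7 and Klhl13. Ssxa1, Slc6a14, a transporter of amino acids, and Ppp1r2-ps7 were above background in none of the 12 cultures. Gm5124, a transcribed pseudogene, ranged from 5.19 to 5.59 (r = −0.21 with Agtr2), and Zfp300, a zinc-finger gene, from 4.69 to 5.22 (r = 0.75), above background in 5 cultures. Klhl13, an adaptor of a ubiquitin ligase, ranged from 6.69 to 7.58 with r = −0.76. The largest SD among the 6 was 0.32 for Klhl13, against 1.40 for Agtr2.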
